A study of Mus musculus with 12 samples.

Results

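Desmosomes are the junctions that rivet neighbouring keratinocytes to each other, and the genes described here encode their cadherins and the proteins of their inner plaque. They were chosen by name, as every probe set whose annotated symbol was Pkp1, Pkp2, Pkp3, Dsp, Jup, Dsc2, Dsc3, Dsg2, Dsg3 or Dsg4. Of these 10 genes, 8 had a probe set, with 21 probe sets among the 45037 tested and 8 genes among 18193. Dsg3 and Dsg4 had none under the annotation used and were not analysed here. Expression was measured in whole skin of C3H/HeJ mice carrying a skin graft, a model of alopecia areata in which an immune attack on the hair follicle leads to hair loss. Baricitinib, an inhibitor of the kinases JAK1 and JAK2, was applied to the skin of 3 mice after disease was established, and vehicle control to 3 others. Each mouse gave skin at week 0, the start of treatment, and at week 12, so that there were 4 groups of 3 arrays. Mice of all 4 groups carried the graft, disease was established in all of them before treatment began, and skin of healthy mice was not analysed here. In whole skin, fewer cells of a type and less RNA per cell cannot be told apart.

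In the desmosome, desmocollins (Dsc) and desmogleins (Dsg) reach across the gap between cells and bind each other. Their tails inside the cell are held by plakoglobin (Jup) and by plakophilins (Pkp), and desmoplakin (Dsp) ties this plaque to the keratin filaments. Skin uses several versions of each part. Dsc1, Dsg1 and Pkp1 are most abundant in the upper layers of the epidermis, Dsc3 and Dsg3 in the lower layers, and Dsg4 in the forming hair shaft. Dsc2, Dsg2 and Pkp2 are also found in simple epithelia and in heart muscle, and in skin they occur in the follicle and the lower epidermis. Inherited loss of PKP1 causes fragile skin with sparse hair, and the study counted Pkp1 in its hair keratin signature. The genes for the desmocollins and desmogleins lie next to each other in a single cluster in the mouse genome.

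None of the 21 desmosome probe sets changed in any comparison by limma at an adjusted p under 0.05. Between week 12 and week 0 of baricitinib, where 1.24% of all probe sets passed (0.362% higher and 0.875% lower), the lowest adjusted p of a desmosome probe set was 0.239. Between baricitinib and vehicle at week 12, where 0.58% of all probe sets passed (0.151% higher and 0.429% lower), the lowest was 0.321. In the vehicle mice between week 12 and week 0, and between the treatments at week 0, 0 probe sets of all those tested passed, and every desmosome probe set had an adjusted p of 1. The change with baricitinib minus the change with vehicle likewise gave 0 calls over all probe sets, and the lowest adjusted p among the desmosome probe sets was 0.836. At an unadjusted p under 0.05, 5 of the 21 were found between week 12 and week 0 of baricitinib, 1 higher and 4 lower, where the share over all probe sets was 12.3%. For baricitinib against vehicle at week 12, 3 were found, all lower, and the share over all was 10.9%. These 3 were probe sets of 1 gene, Dsg2, and the same 3 were among the 4 lower ones over time with baricitinib, so they are not separate findings. With vehicle 1 was found (2.46% over all), between the treatments at week 0 also 1 (1.13% over all), and for the difference of the changes 0 (6.27% over all).

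Counts of probe sets whose arrays of one group all lay above or below those of the other were also small. Between week 12 and week 0 of baricitinib they were 2 higher and 2 lower, where 7.97% and 7.91% of all probe sets lay apart in those directions. With vehicle there were 0 higher and 1 lower (4.68% and 3.59% of all). For baricitinib against vehicle there were 1 higher and 3 lower at week 12 (7.44% and 9.69% of all), and 0 higher and 2 lower at week 0 (2.27% and 2.73% of all). The estimates stood on both sides of 0 for week 12 against week 0 of baricitinib, 10 above and 11 below, with a median of -0.06 beside 0.003 over all probe sets, and for baricitinib against vehicle at week 12 they were 8 above and 13 below, with a median of -0.16 beside 0.01. All 6 probe sets of Dsg2 were among these 13.

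The arrays themselves differed in a way that touches many of these probe sets. On this array the control transcripts Gapdh and Actb are read by probe sets at their 3' and 5' ends, and the difference of the 2 log2 signals, averaged over both transcripts, is a sign of how complete the RNA and its copies were. This 3' to 5' index was 3.19, 4.10 and 2.55 in the 3 baricitinib mice at week 0 and 3.45, 1.27 and 1.31 at week 12. In the vehicle mice it was 1.23, 3.67 and 4.08 at week 0 and 2.97, 3.10 and 3.58 at week 12. Low values thus stood in 3 arrays, and 2 of them were from baricitinib at week 12. The arrays with the lowest median correlation with the others were baricitinib week 0 replicate 2 (0.945) and baricitinib week 12 replicate 1 (0.951), and the others lay between 0.955 and 0.979. For several probe sets that move with the index, r or the fit with the index as a covariate is given below. The part of the index was tested only as a covariate chosen after the data had been seen.

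The plaque genes with the steadiest RNA signal were those of plakophilin 1 and desmoplakin. Their brightest probe sets stood near the top of the array's range, each at percentile 99.8 of the means of all probe sets. Whether signals this high still follow the amount of RNA was not tested. Pkp1 (probe set 1449586_at) had log2 values of 12.91, 12.84 and 12.91 in the baricitinib mice at week 0 and of 12.89, 12.94 and 12.95 at week 12. In the vehicle mice it had 12.83, 13.11 and 13.09 at week 0 and 13.04, 13.12 and 13.20 at week 12. The baricitinib mice were alike at both times, and at week 12 all 3 lay below all 3 vehicle mice. The difference between week 12 and week 0 of baricitinib was 0.04 on the log2 scale (SE 0.18, n = 3 per group, limma adjusted p = 0.961), with a 95% interval from 0.781-fold to 1.35-fold. Against vehicle at week 12 it was -0.19 (95% interval -0.59 to 0.20, limma adjusted p = 0.819).

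Desmoplakin had 3 probe sets. The one with the highest mean, 1435493_at, had log2 values of 12.93, 13.03 and 12.82 with baricitinib at week 0 and of 12.95, 12.82 and 12.78 at week 12. With vehicle it had 12.52, 13.02 and 13.17 at week 0 and 12.76, 12.90 and 13.13 at week 12. The groups overlapped throughout, and their means spanned 0.08. The baricitinib change of -0.08 had a 95% interval from -0.56 to 0.41 (limma adjusted p = 0.937), and the next probe set, 1435494_s_at, had a change of 0.005 (95% interval -0.49 to 0.50). Over the 12 arrays r with the 3' to 5' index was 0.834 for 1435493_at and 0.579 for 1435494_s_at. The dim probe set 1427610_at ranged from 3.43 to 7.11 across the 12 arrays. Its highest values were 7.11 and 6.24 in baricitinib week 12 replicates 3 and 2 and 6.75 in vehicle week 0 replicate 1, which are the 3 arrays with a low 3' to 5' index.

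**Figure D1:**
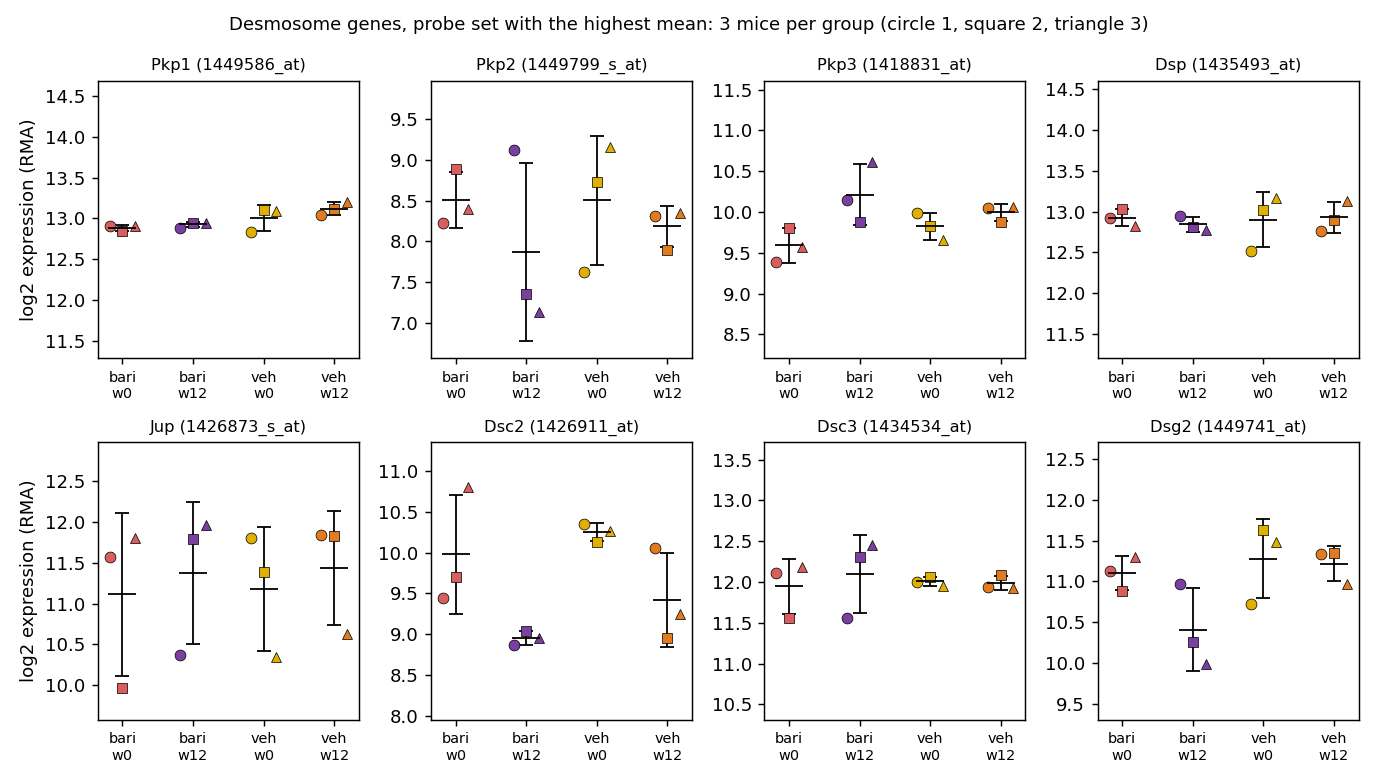
Log2 expression of the 8 desmosome genes in single mice, for the probe set of each gene with the highest mean. Points are mice 1 to 3 (circle, square, triangle), bars are the mean and SD of 3 mice, and every panel spans the same number of log2 units. The groups of Pkp1, Dsp and Dsc3 lie at like levels, Dsc2 is lower at week 12 than at week 0 with both treatments, and Dsg2 is lowest in 2 of the baricitinib mice at week 12.

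Plakoglobin, the plaque protein that desmosomes share with adherens junctions, had a single probe set, 1426873_s_at. Its log2 values were 11.57, 9.96 and 11.80 with baricitinib at week 0 and 10.37, 11.79 and 11.96 at week 12. With vehicle they were 11.81, 11.39 and 10.34 at week 0 and 11.84, 11.83 and 10.62 at week 12. Each group held both high and low arrays, and 4 arrays stood lower than the rest, which were 4 of the 5 arrays with the highest 3' to 5' index. The baricitinib change was 0.26 (SE 0.60, 95% interval -1.04 to 1.57, limma adjusted p = 0.917). It moved from -0.31 without baricitinib week 0 replicate 2 to 0.77 without baricitinib week 12 replicate 1, and was -0.55 with the index as a covariate. A change of Jup of 2-fold in either direction lies inside this interval.

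Plakophilin 3, found in most layers of the epidermis and in the follicle, was the member with the largest upward change among probe sets with the highest mean of their gene. Pkp3 (1418831_at) had log2 values of 9.39, 9.81 and 9.57 with baricitinib at week 0 and of 10.15, 9.87 and 10.61 at week 12. With vehicle it had 9.99, 9.83 and 9.66 at week 0 and 10.05, 9.88 and 10.06 at week 12. It was higher at week 12 in 3 of 3 baricitinib mice, by 0.76, 0.06 and 1.04, and the groups did not overlap. The change of 0.62 (SE 0.23, 95% interval 0.11 to 1.13) had an unadjusted p of 0.0212 and a limma adjusted p of 0.277. The 3 vehicle mice were also higher at week 12, by 0.06, 0.05 and 0.40. A probe set higher in all 3 mice was found for 13.3% of all probe sets with baricitinib and for 14.9% with vehicle. For Pkp3 the difference of the changes was 0.45 (95% interval -0.27 to 1.18, limma adjusted p = 0.933). Without baricitinib week 12 replicate 3 the baricitinib change was 0.42.

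The other Pkp3 probe set, 1418832_at, gave values from 4.11 to 7.86 and followed the 3' to 5' index with r = -0.974 over the 12 arrays. Its baricitinib change of 1.29 (95% interval -0.66 to 3.25) was -0.19 with the index as a covariate. The pair of Pkp3 probe sets correlated with r = 0.436 over the 12 arrays.

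Plakophilin 2, the plakophilin of simple epithelia and heart muscle, had 4 probe sets. The one with the highest mean, 1449799_s_at, had log2 values of 8.22, 8.89 and 8.40 with baricitinib at week 0 and of 9.12, 7.36 and 7.13 at week 12. With vehicle it had 7.62, 8.73 and 9.16 at week 0 and 8.31, 7.89 and 8.35 at week 12. The lowest values were in the 3 arrays with a low index, and r with the index was 0.893 over the 12 arrays. The baricitinib change of -0.63 (SE 0.51, 95% interval -1.75 to 0.48, limma adjusted p = 0.701) was 0.13 with the index as a covariate. A further probe set, 1429183_at, was lower in all 3 baricitinib mice than in all 3 vehicle mice at week 0, with 6.33, 5.77 and 6.73 against 7.24, 6.97 and 7.12. This difference before treatment, -0.83, had an unadjusted p of 0.0305 and a limma adjusted p of 1.

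Desmocollin 2 had the widest span of group means among the probe sets with the highest mean of their gene, 1.30 on the log2 scale. Dsc2 (1426911_at) had log2 values of 9.44, 9.70 and 10.81 with baricitinib at week 0 and of 8.87, 9.04 and 8.95 at week 12. With vehicle it had 10.35, 10.14 and 10.27 at week 0 and 10.06, 8.95 and 9.25 at week 12. Within each treatment all week 12 arrays lay below all week 0 arrays. The group means fell in the order vehicle week 0 (10.25), baricitinib week 0 (9.98), vehicle week 12 (9.42) and baricitinib week 12 (8.96), and no pair that the design compares passed the test.

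The difference between week 12 and week 0 of Dsc2 was -1.02 with baricitinib (SE 0.36, 95% interval -1.82 to -0.24, unadjusted p = 0.0154, limma adjusted p = 0.239), a 2.03-fold lower level. With vehicle it was -0.83 (SE 0.36, 95% interval -1.62 to -0.04, unadjusted p = 0.0409, limma adjusted p = 1). It was lower in 3 of 3 mice with baricitinib and in 3 of 3 with vehicle, as were 12.9% and 11.2% of all probe sets. The difference of the changes was -0.20 (95% interval -1.31 to 0.92, limma adjusted p = 0.991), so that an added change with baricitinib was not detectable with 3 mice. The baricitinib value rests in part on replicate 3 at week 0, without which it was -0.61. The r of 1426911_at with the 3' to 5' index was 0.106 over the 12 arrays and -0.34 about the group means. Its baricitinib change was -1.21 with the index as a covariate. The dimmer probe set 1421156_a_at had differences of -1.11 with baricitinib (95% interval -2.88 to 0.66) and -0.94 with vehicle (95% interval -2.71 to 0.83). Its r with the index was -0.279, and -0.561 about the group means.

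Across the 12 arrays, the genes whose pattern was most like that of Dsc2 were Fgfbp3 (Pearson r = 0.916), Hook1 (0.915), Inhba (0.906), Styk1 (0.895) and Tmprss2 (0.895). They are given as a description of the 12 arrays, which share groups and mice. Styk1 fell by 1.16 with baricitinib (limma adjusted p = 0.0469) and the other genes of this list did not pass the test. Of the marker lists, the Dsc2 level ran most strongly against that of 3 adipocyte genes (r = -0.869). The mean log2 level of these genes rose from 9.39 to 11.32 between week 0 and week 12 of baricitinib, and was 9.32 and 9.64 with vehicle. The part of cell composition in the Dsc2 values was not tested.

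Desmocollin 3, the desmocollin of the lower epidermis, was near level. Dsc3 (1434534_at) had log2 values of 12.11, 11.56 and 12.18 with baricitinib at week 0, and of 11.56, 12.30 and 12.45 at week 12. With vehicle it had 12.00, 12.07 and 11.95 at week 0 and 11.94, 12.09 and 11.92 at week 12. The vehicle arrays were close together and the baricitinib arrays spread on both sides of them. The baricitinib change was 0.15 (95% interval -0.43 to 0.73, limma adjusted p = 0.886), and a change of Dsc3 of 2-fold lies outside this interval. The dim probe set 1427637_a_at was higher at week 12 of baricitinib, with 5.64, 5.57 and 6.44 against 5.39, 5.44 and 5.38, and did not overlap with week 0. That change was 0.48 (95% interval -0.14 to 1.10, limma adjusted p = 0.565). Both Dsc3 probe sets ran against the 3' to 5' index, with r of -0.673 for 1434534_at and -0.687 for 1427637_a_at over the 12 arrays.

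Desmoglein 2 was the only desmoglein among the members with a probe set, and it had 6. The 3 with the highest means moved as one, with r from 0.958 to 0.997 between them over the 12 arrays. The first of them, 1449741_at, had log2 values of 11.13, 10.89 and 11.30 with baricitinib at week 0 and of 10.98, 10.26 and 9.99 at week 12. With vehicle it had 10.73, 11.63 and 11.48 at week 0 and 11.33, 11.35 and 10.98 at week 12. It was lower in 3 of 3 baricitinib mice, by 0.16, 0.63 and 1.32, and the groups met at baricitinib week 12 replicate 1. The vehicle mice went both ways.

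For these 3 probe sets the difference between week 12 and week 0 of baricitinib was -0.70, -0.67 and -0.75, with unadjusted p of 0.0447, 0.0378 and 0.0234 and limma adjusted p of 0.391, 0.36 and 0.288. With vehicle the differences were -0.06, -0.09 and -0.12. Against vehicle at week 12 they were -0.81, -0.78 and -0.75, with limma adjusted p of 0.346, 0.321 and 0.349. The 95% interval of the first ran from -1.49 to -0.13, a level 1.75-fold lower. The difference of the changes was -0.64 for 1449741_at (95% interval -1.60 to 0.32, limma adjusted p = 0.92).

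The 3' to 5' index moved with these values. The correlation of the 3 probe sets with the index was 0.732, 0.728 and 0.82 over the 12 arrays, and the lowest Dsg2 values, in baricitinib week 12 replicates 2 and 3, were from arrays of low index. With the index as a covariate the baricitinib change of 1449741_at was -0.40 (limma adjusted p = 0.479) and the week 12 difference from vehicle was -0.53 (limma adjusted p = 0.313). Without baricitinib week 12 replicate 3 the baricitinib change was -0.49.

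The 3 dimmer Dsg2 probe sets, 1425619_s_at, 1460380_at and 1426153_a_at, were also lower with baricitinib than with vehicle at week 12, with differences of -1.20, -0.44 and -1.01. None passed the test (limma adjusted p = 0.573, 0.726 and 0.504). The mean log2 levels of these 3 were 6.04, 5.79 and 4.08, at percentiles 58.1, 55.7 and 34.5 of the means of all probe sets. The 3 bright probe sets stood at percentiles 96.4, 94.2 and 93.5. At week 0, before treatment, the 3 bright probe sets already differed from vehicle by -0.17, -0.20 and -0.11. The 3 dimmer ones then differed by -0.85, -0.66 and -0.07. About their group means, 2 of these 3 moved against the index, with r of -0.804 for 1425619_s_at and -0.57 for 1460380_at, while the 3 bright probe sets moved with it (0.667, 0.68 and 0.833). The difference of the mean of all 6 probe sets had a smaller SE, 0.17, than that of any of them alone, which was 0.29 or more. That mean had a log2 level of 7.95 ± 0.10 (SD, n = 3) at week 0 and 7.38 ± 0.14 at week 12 of baricitinib. With vehicle it was 8.30 ± 0.19 and 8.21 ± 0.07.

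When every gene was taken as the mean of its probe sets, Dsg2 was lower with baricitinib than with vehicle at week 12, with a difference of -0.83 (SE 0.17, 95% interval -1.20 to -0.46), and passed the test (limma adjusted p = 0.0378). In that fit 0.978% of the 18193 genes were lower and 0.451% higher, and 2.11% were lower and 1.14% higher between week 12 and week 0 of baricitinib. The Dsg2 mean gives the 3 dim probe sets the same weight as the 3 bright ones, so the call rests in part on dim signals. Of the dim differences from vehicle, -1.20 and -1.01 were larger in size than any bright one, and -0.44 was smaller. A mean of the bright probe sets alone was not tested. The difference of the mean of all 6 from vehicle at week 12 was -0.82 with the index as a covariate (limma adjusted p = 0.0289). The bright Dsg2 probe sets and most of the dim ones moved in opposite directions with the index. This covariate could therefore move their mean little, and the fit does not decide the part of the index in the call. The difference from vehicle did not depend on a single array for its size, which lay between -0.89 and -0.76 with any array left out, but the adjusted p was under 0.05 in 2 of these 12 fits and reached 0.137. Between week 12 and week 0 of baricitinib the gene mean changed by -0.57 (limma adjusted p = 0.103), the treatments already differed by -0.35 at week 0 (95% interval -0.72 to 0.03, limma adjusted p = 1), and the difference of the changes was -0.48 (95% interval -1.01 to 0.04, limma adjusted p = 0.712).

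**Figure D2:**
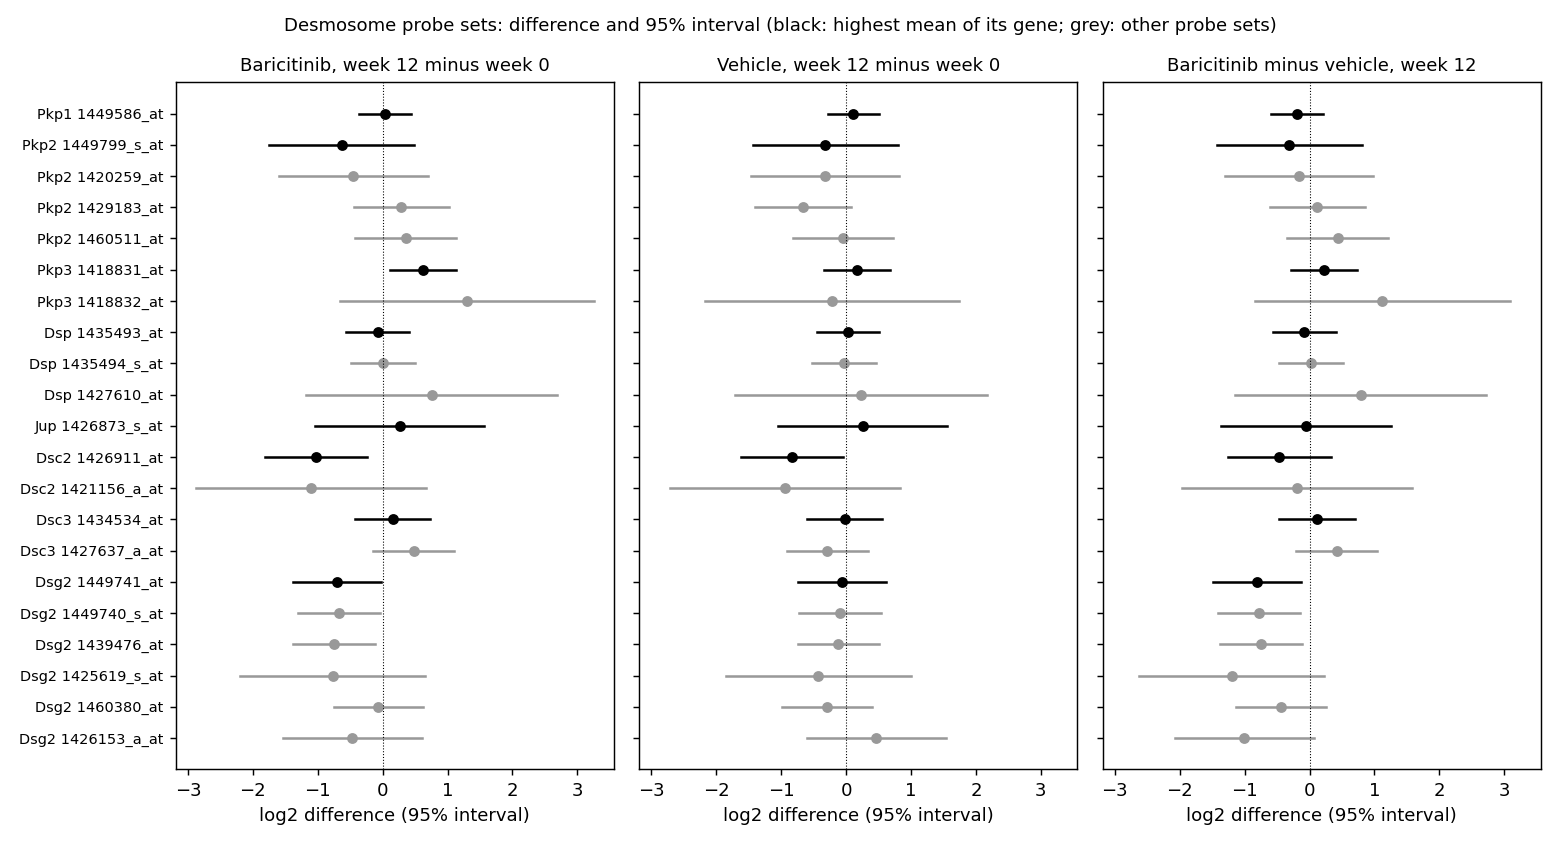
Log2 difference with its 95% interval for the 21 desmosome probe sets in 3 comparisons of 3 mice against 3 (black, probe set with the highest mean of its gene; grey, other probe sets). All 6 Dsg2 probe sets lie below 0 for baricitinib against vehicle at week 12, both Dsc2 probe sets lie below 0 for week 12 against week 0 with either treatment, and the intervals of Pkp1 and of 2 Dsp probe sets are the narrowest around 0. The 6 Dsg2 differences from vehicle were also below 0 at week 0, before treatment, a comparison not drawn here.

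The 8 genes did not move together from array to array. Several probe sets were ordered by the 3' to 5' index, in both directions. The strongest were the Pkp3 probe set 1418832_at (r = -0.974), the Dsp probe set 1427610_at (r = -0.944) and the Pkp2 probe set 1449799_s_at (r = 0.893). The median size of r with the index was 0.673 over the 21 probe sets and 0.511 over all probe sets. Opposite signs occurred within single genes, so that the bright and the dim Dsp probe sets, 1435493_at and 1427610_at, correlated with r = -0.818. With the index as a covariate 0 of the 21 probe sets passed the test in any comparison.

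**Figure D3:**
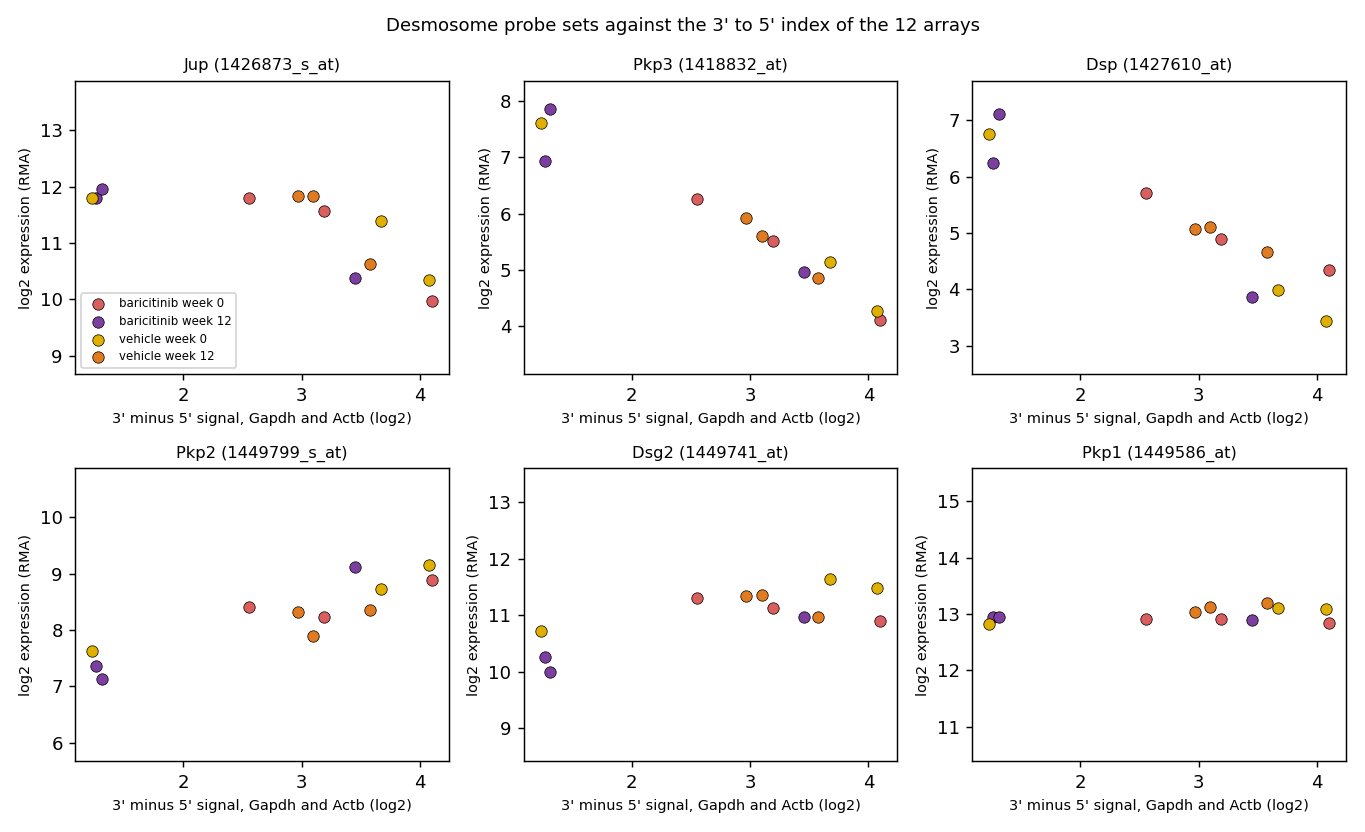
Log2 expression of 6 desmosome probe sets against the 3' to 5' index of the 12 arrays, coloured by group. The 3 arrays with an index under 2 hold the 3 highest values of Pkp3 1418832_at and Dsp 1427610_at and the 3 lowest of Pkp2 and Dsg2, while Pkp1 stays between 12.83 and 13.20.

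Other junction genes were set beside these, from lists chosen by known function and with earlier results of these data in view. For each gene the probe set of highest mean was used. By this measure 0.5% of the 18193 genes were higher and 1.55% lower between week 12 and week 0 of baricitinib, with a median change of -0.02, and 0.242% were higher and 0.709% lower than with vehicle at week 12. Of 8 further desmosome and cornified envelope genes, 0 passed the test, and the 2 with the largest differences were Dsg1b (-0.33, limma adjusted p = 0.656) and Pkp4 (0.31, adjusted p = 0.565). Dsc1 and Dsg1a, the cadherins of the upper epidermis, had differences of -0.12 and 0.18. Of 10 adherens junction genes 0 passed, with E-cadherin (Cdh1) at 0.17 and a median of 0.12, and of 9 tight junction genes 0 passed, with a median of 0.34.

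Calls were made among gap junction and basement membrane genes. Of 4 connexin genes, 2 fell between week 12 and week 0 of baricitinib, and their median difference was -1.59. Gjb2, a connexin of follicle and epidermis whose inherited changes cause skin disease and deafness, had log2 values of 12.48, 12.10 and 12.79 at week 0 and of 9.60, 9.17 and 9.92 at week 12. It fell by 2.89 (limma adjusted p = 0.00159), and its relative Gjb6 fell by 2.70 (limma adjusted p = 0.00723). Against vehicle at week 12 both were also lower, with Gjb2 at -2.39 (limma adjusted p = 0.00861). Of 8 genes of the hemidesmosome and basement membrane, 2 rose, which were Itgb4 (1.44, limma adjusted p = 0.0119) and Col17a1 (1.36, limma adjusted p = 0.0176), the integrin and the collagen that anchor basal keratinocytes. With the mouse as a fixed block, where 0.351% of all probe sets passed, Gjb2 and Gjb6 were still called, and Itgb4 and Col17a1 were not. Against vehicle at week 12, 0 of the 8 hemidesmosome and basement membrane genes passed, with a median difference of 0.14. Over time with vehicle 7 of these 8 had an estimate above 0, and 0 passed.

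The keratins that desmosomes anchor went different ways. Of 7 epidermal keratin genes 1 rose with baricitinib, Krt15 of basal and bulge keratinocytes (2.36, limma adjusted p = 0.0227), and the main keratins of the basal and upper epidermis, Krt5 and Krt10, had differences of 0.00 and 0.07. Of 12 hair shaft keratin genes all had a lower estimate, with a median of -4.34, and 3 fell, Krt35 (-6.51, limma adjusted p = 0.0022), Krt82 (-5.11, limma adjusted p = 0.0203) and Krt31 (-5.16, limma adjusted p = 0.0372). Without the 2 arrays of lowest correlation 1 of these 12 was called, where 1.91% of all probe sets passed, and with the index as a covariate 8, where 3.91% passed. With the mouse as a fixed block (0.351%) 1 was called, and 0 of the epidermal keratins. Of 6 regulators of the hair shaft 1 fell, Msx2 (-2.79, limma adjusted p = 0.0248, and 0.0843 with the mouse as a fixed block), and 0 of 5 keratinocyte transcription factors and 0 of 9 genes for proteases, inhibitors and crosslinking enzymes passed. The largest differences in the last list were those of Padi3 (-3.82, limma adjusted p = 0.155) and Tgm3 (-1.72, limma adjusted p = 0.161), enzymes of the hair follicle. The 12 hair shaft keratin genes were also compared with vehicle. At week 12, 0 of them had an estimate above 0, with a median of -2.76, and 1 passed, where 0.709% of all genes were lower. At week 0, 10 of the 12 had a higher estimate in the baricitinib mice, with a median of 0.96, and 0 passed. Over time with vehicle, 0 of the 12 had an estimate above 0, with a median of -0.64, and 0 passed.

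**Figure D4:**
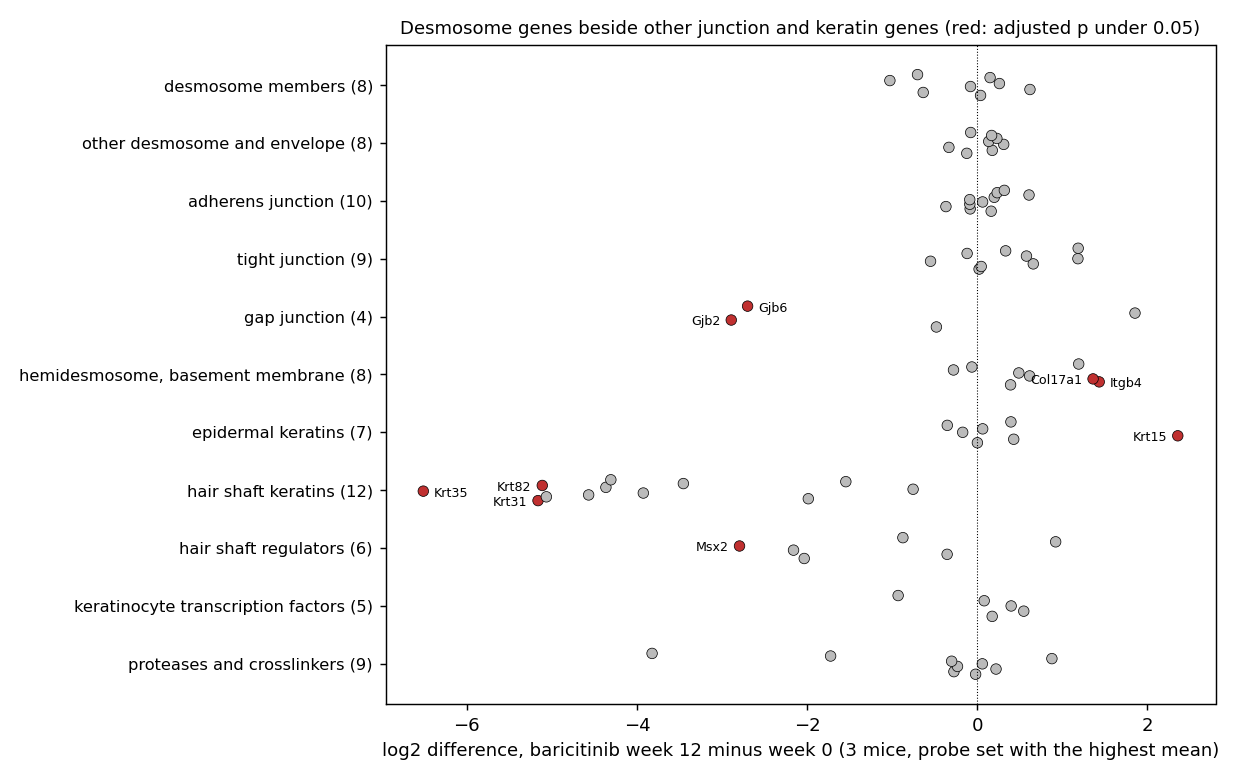
Log2 difference between week 12 and week 0 of baricitinib for the 8 desmosome genes and for 10 lists of other junction, keratin and regulator genes, with 1 point per gene (number of genes in parentheses). Genes with a limma adjusted p under 0.05 are red and named, and the 8 desmosome genes lie between -1.02 and 0.62, while hair shaft keratins reach -6.51.

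Marker genes of skin compartments place the desmosome values. The mean log2 level of 5 hair shaft genes was at least 9.34 in each baricitinib mouse at week 0, lay between 3.90 and 5.40 at week 12, and between 8.10 and 8.65 with vehicle at week 12. The vehicle mice at week 0 were spread most widely, from 6.12 to 10.74. For 5 inner root sheath genes it lay between 11.23 and 12.01, between 5.83 and 7.50, and between 10.36 and 10.65 in the first 3 of these groups, and between 8.86 and 12.03 with vehicle at week 0. The study reports that hair grew back in mice given topical baricitinib and not in mice given vehicle, as followed with a hair regrowth index. How these RNA levels relate to that regrowth was not tested. Over all 12 arrays Pkp1, which the study grouped with hair keratin genes, spanned 12.83 to 13.20, and its level had an r of -0.127 with that of the hair shaft genes (-0.534 about the group means). The r of Pkp1 with 3 suprabasal keratinocyte genes was 0.743 (0.851 about the group means). Dsg2 had an r of 0.546 with the hair shaft genes and of 0.624 with the inner root sheath genes, but of -0.079 and -0.037 about the group means. Of the marker lists, the Dsg2 level ran most strongly against that of 4 basal keratinocyte genes (r = -0.698, and -0.595 about the group means), and so did that of Pkp2 (r = -0.852, and -0.933 about the group means). For Dsg2 the adipocyte and endothelial lists had nearly the same r, -0.678 and -0.673 (-0.12 and -0.074 about the group means). The 4 basal keratinocyte genes did not move as one. Against vehicle at week 12, 2 of them had an estimate above 0, their median difference was -0.006, and only Krt15, also a bulge gene, passed the test. Skeletal muscle genes, a tissue under the skin that biopsies can hold, had a mean level of 8.85 to 11.92 in the 3 baricitinib arrays at week 12, and r with them was 0.742 for Pkp2, 0.559 for Dsg2 and -0.698 for Pkp3. About the group means these r were 0.75, 0.738 and -0.709. For Dsg2 this was the largest r in size about the group means among the marker lists. These correlations are over 12 arrays that share groups, mice and RNA quality, and the part of cell composition in the desmosome values was not tested.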

How the data were processed

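Skin RNA of 6 mice, 3 treated with topical baricitinib and 3 with vehicle, was taken at week 0 and week 12 and hybridised to 12 Affymetrix mouse genome arrays. The authors extracted and amplified the RNA and normalised the arrays by RMA within the experiment, and their deposited log2 values were analysed without further normalisation. Per their methods, an array of baricitinib at each week failed quality control and was left out of further analysis, as was a control array of week 0 whose experiment is not named. Which arrays these were, and whether they are among the 12 analysed here, is not given in the sources used here. The precision is limited by the number of arrays.

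After 64 control probe sets were left out, 45037 were tested. Symbols came from the array's public annotation, which gave 34945 probe sets 1 symbol, 932 several and 9160 none. A mean for each group was fitted to all 12 arrays with limma 3.58.1 in R 4.3.3 (residual degrees of freedom 8, prior 3.54). There were 5 comparisons, namely week 12 against week 0 within each treatment, the treatments against each other at each week, and the difference of the 2 changes. The threshold was an adjusted p of 0.05 (Benjamini-Hochberg, over every probe set tested). Correlations are descriptions over 12 arrays. All members were named, and of other lists those that passed the test or, where none did, the 2 largest differences, with a few others chosen after their values were seen. The members and lists were chosen with earlier results of these data known.

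The sample descriptions carry the same numbers at both weeks, which were read as animal numbers, so samples of one number were taken as one mouse. The deviations of week 0 and week 12 arrays from their group means correlated with -0.362, -0.508 and 0.467 under baricitinib and with 0.439, -0.134 and 0.491 under vehicle. Fits with the mouse as a block and other settings were alternatives. The pipeline was tested on simulated data. Figures were drawn with matplotlib 3.10.9 in Python 3.11.15.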

Additional observations from a re-analysis of the deposited data

How the results depend on the processing

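The count of desmosome probe sets that passed the limma test was 0 in all 5 comparisons, and it stayed 0 when dim probe sets were left out, when the prior variance followed the level, and with cyclic loess, median centring, and each array left out in turn (0 to 0). It was also 0 in fits of only the 2 groups compared (run for the 4 comparisons of 2 groups), with the mouse as a random replicate block (consensus correlation -0.004), and with the mouse as a fixed block, which can be fitted for the 2 changes over time and their difference only. With array weights 7 passed for week 12 against week 0 of baricitinib, 2 for vehicle, 7 for baricitinib against vehicle at week 12 and 4 at week 0, where 25%, 11.1%, 24.9% and 12.7% of all probe sets passed. With weights estimated gene by gene, added after seeing the data, 4 and 5 passed for the first and the third of these, where 17.9% and 19.5% of all passed. The 3 bright Dsg2 probe sets were called under both kinds of weights, with differences from vehicle at week 12 between -1.09 and -0.82. Using the 3' to 5' index of the arrays as a covariate and leaving out the 2 arrays of lowest correlation, both added after seeing the data, gave 0. Of 2377 recomputed values of single members, 2310 moved by less than the residual SD without changing their call, 37 moved by more, 30 became called and 0 lost a call, and the sign changed in 202, all of values not called as reported.

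Of the genes named in other lists, Gjb2, Gjb6 and Krt35 were called between week 12 and week 0 of baricitinib with each array left out. Without baricitinib week 0 replicate 3 the limma adjusted p was 0.0908 for Col17a1, 0.112 for Krt15, 0.152 for Krt31, 0.0996 for Krt82 and 0.119 for Msx2, and for Itgb4 it was 0.0581 without baricitinib week 12 replicate 3. These are the highest values, and other arrays ended the calls too. Of the 12 fits with an array left out, 9 called Itgb4, 8 each Col17a1, Krt82 and Msx2, 7 Krt15 and 3 Krt31. Against vehicle at week 12 the adjusted p reached 0.0515 for Gjb2 without vehicle week 12 replicate 1 and 0.0891 for Gjb6 without vehicle week 12 replicate 2. In a fit of only the 2 groups compared, with 97 calls over all probe sets, Gjb2, Krt31, Krt35 and Krt82 kept their call between week 12 and week 0 of baricitinib, and the limma adjusted p was 0.0595 for Gjb6, 0.104 for Itgb4, 0.142 for Col17a1, 0.11 for Krt15 and 0.0717 for Msx2.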
